A study of Homo sapiens with 46 samples.

Results

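Silencing of cytochrome b (CYTB, gene symbol MT-CYB) with a pCox4-morpholino chimera was compared with the pCox4 control in 8 RNA-seq libraries of HEK293T cells, a human embryonic kidney cell line, out of 46 libraries of 12 conditions. The members were taken from the sample labels, as the 4 libraries labelled CYTB and the 4 control libraries, with all genes of the count table. A morpholino is an antisense oligomer with an uncharged backbone, and pCox4 is a yeast presequence that carries it into mitochondria. CYTB cells received 2 µM of the chimera with the EndoPorter delivery reagent for 48 hours in glucose medium. Control cells received the pCox4 presequence in click reaction buffer, without a morpholino, for the same time, and all cells were of the wild-type genotype of the line. The methods of the study describe the line as HEK293-Flp-In T-Rex cells, so all cells come from 1 immortalised line. The libraries were prepared from poly(A)-selected RNA in batches, with replicates 1 and 2 in batch 1 and replicates 3 and 4 in batch 2. Since the control carries no morpholino, an effect of CYTB silencing and an effect of carrying any morpholino chimera cannot be told apart in this comparison. The other 10 chimera treatments (38 libraries, each against another mtDNA-encoded mRNA) therefore served as a further reference, with ATP6, ATP8, COX1, COX2, COX3, ND1, ND2, ND3, ND4L and ND5 as targets.

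Cytochrome b is the only subunit of respiratory complex III that is encoded in mitochondrial DNA (mtDNA). Complex III passes electrons from ubiquinol to cytochrome c, and cytochrome b holds some of its haem groups. Human mtDNA is transcribed from both strands into long precursors, and the tRNAs that lie between the mRNAs and rRNAs are cut out to release them. The tRNA for glutamate, MT-TE, lies directly upstream of MT-CYB on the opposite strand.

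The morpholino is directed against the start of the MT-CYB coding sequence (chrMT:14747-15887, GRCh38, plus strand). Between the MT-TE gene (chrMT:14674-14742, minus strand) and MT-CYB lie 4 bases. The sequence of MT-TE is given 5′ to 3′ because the results turn on the reads counted over this stretch.
MT-TE gene (chrMT:14674-14742, minus strand): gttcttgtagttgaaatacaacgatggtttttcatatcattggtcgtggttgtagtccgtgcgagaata

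Sequencing depth was similar in both groups. The total count was between 19944731 and 22664329 in the control libraries and between 19598334 and 26600761 in the CYTB libraries. Transcripts of mtDNA took 4.56% ± 0.414 of all counts in the control and 4.68% ± 0.608 in CYTB cells (SD, n = 4). Levels below are in CPM, the counts of a gene scaled to a common library size after TMM normalization, which are not corrected for gene length and are compared only within a gene, and ± is the SD over the 4 libraries. Fold changes are log2 values with a term for the batch, from a model of all 46 libraries, and a gene was called at a Benjamini-Hochberg adjusted p under 0.05 in the edgeR quasi-likelihood test. The methods of the study call the libraries biological replicates and place the batches on different days, whereas the labels name no separate cultures. Markers of the HEK293 line (KRT8, KRT18, CDH2, VIM, PAX2, LHX1 and NEFM) were all detected, with a summed level of 944 to 1137 CPM in the control and 936 to 1168 CPM in CYTB cells, and 0 of 7 were called. Of 14 markers of other cells, 11 were below 1 CPM in every library, HBB was at 0, and the summed level was 29.4 to 34.3 CPM in the control and 29.01 to 33.5 CPM in CYTB cells, mostly from COL1A1 at 24.9 and 24.6 CPM.

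CYTB silencing lowered the level of its own mRNA. MT-CYB was at 2136 and 2120 CPM in the batch 1 control libraries and at 1550 and 1649 CPM in CYTB cells of that batch. In batch 2 the control libraries held 2558 and 2799 CPM and the CYTB libraries 2105 and 2416 CPM. Each CYTB library lay below both control libraries of its batch, while the levels overlapped across batches. CYTB libraries held 72.8%, 77.5%, 78.6% and 90.2% of the control mean of their batch, with a mean of 79.8% ± 7.38 (SD, n = 4). The log2 fold change was -0.33 (SE 0.0613, adjusted p = 0.00449), with -0.41 in batch 1 and -0.24 in batch 2. The call was lost without CYTB replicate 1 (-0.28, adjusted p = 0.0648) and without control replicate 4 (-0.30, adjusted p = 0.067). Against the mean of the other 10 treatments, which uses no control library, MT-CYB was lower by a log2 value of -0.39 (SE 0.0472, adjusted p = 3.62e-07). In those treatments its log2 fold change against the same control libraries was between -0.14 (ND2) and 0.23 (COX1), and it was called in none of the 10.

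The largest response to CYTB silencing among genes with at least 100 counts over the 8 libraries was at MT-TE, the tRNA gene beside MT-CYB. MT-TE was at 1.95, 1.90, 2.77 and 1.61 CPM in control replicates 1 to 4, from 44, 43, 56 and 34 counts. In CYTB replicates 1 to 4 it was at 23.4, 25.3, 21.7 and 13.7 CPM, from 608, 619, 430 and 330 counts. All CYTB libraries lay far above all control libraries. The mean rose from 2.06 ± 0.499 to 21.0 ± 5.1 CPM (SD, n = 4), a fold of 10.2 on the fitted scale (log2 fold change 3.35, SE 0.197, adjusted p = 1.45e-18). The log2 fold change was 3.66 in batch 1 and 3.01 in batch 2, and between 3.26 and 3.54 when any 1 of the 8 libraries was left out. In the other 10 treatments the mean level of MT-TE was between 1.54 (ATP6) and 3.22 CPM (COX3), the highest single library was at 4.15 CPM, and it was called in none of them against the same control libraries. Against the mean of these treatments the log2 difference was 3.33 (SE 0.107, adjusted p = 4.81e-31). Use of the read strand in counting is not given in the sources used here, so reads of MT-TE and reads of the opposite strand at the same place cannot be told apart. The libraries were poly(A)-selected, and the values describe the reads counted at this gene rather than the amount of mature tRNA.

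**Figure D1:**
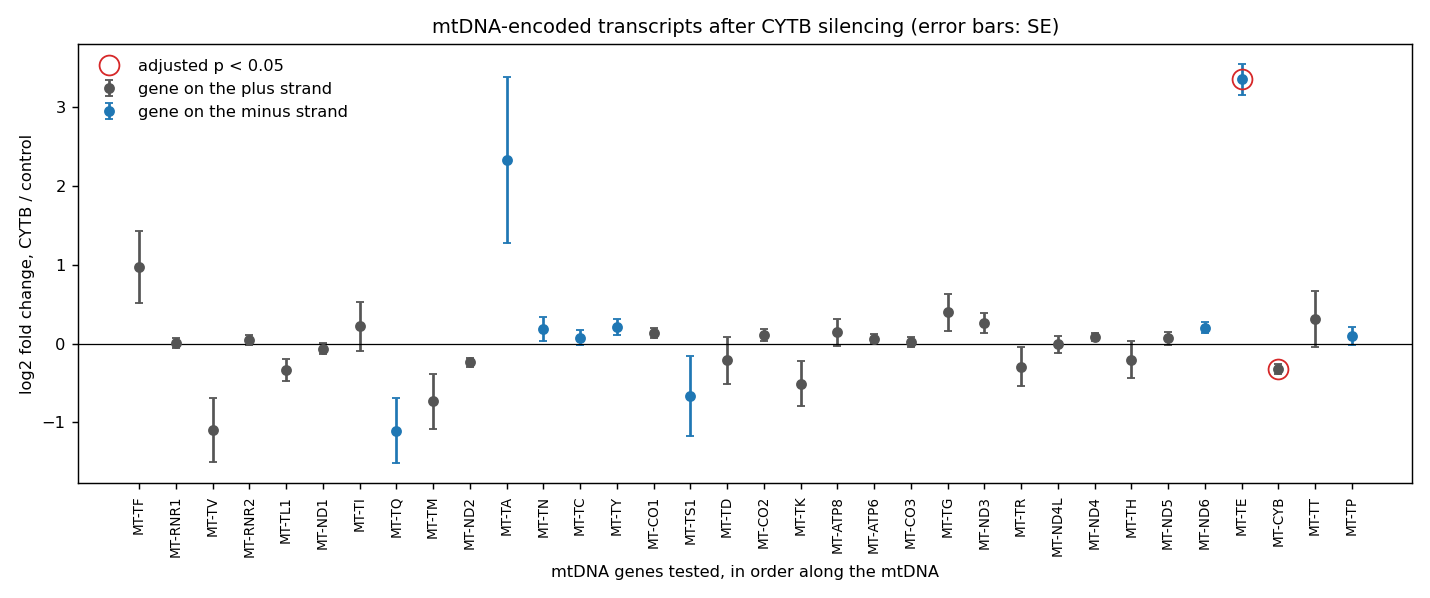
Log2 fold change of CYTB over control cells (y axis, with SE) of the tested mtDNA genes in their order on mtDNA (x axis), with genes of the plus and minus strand in different colours. MT-TE stands at 3.35, next to MT-CYB at -0.33, and these were the 2 mtDNA genes called.

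**Figure D2:**
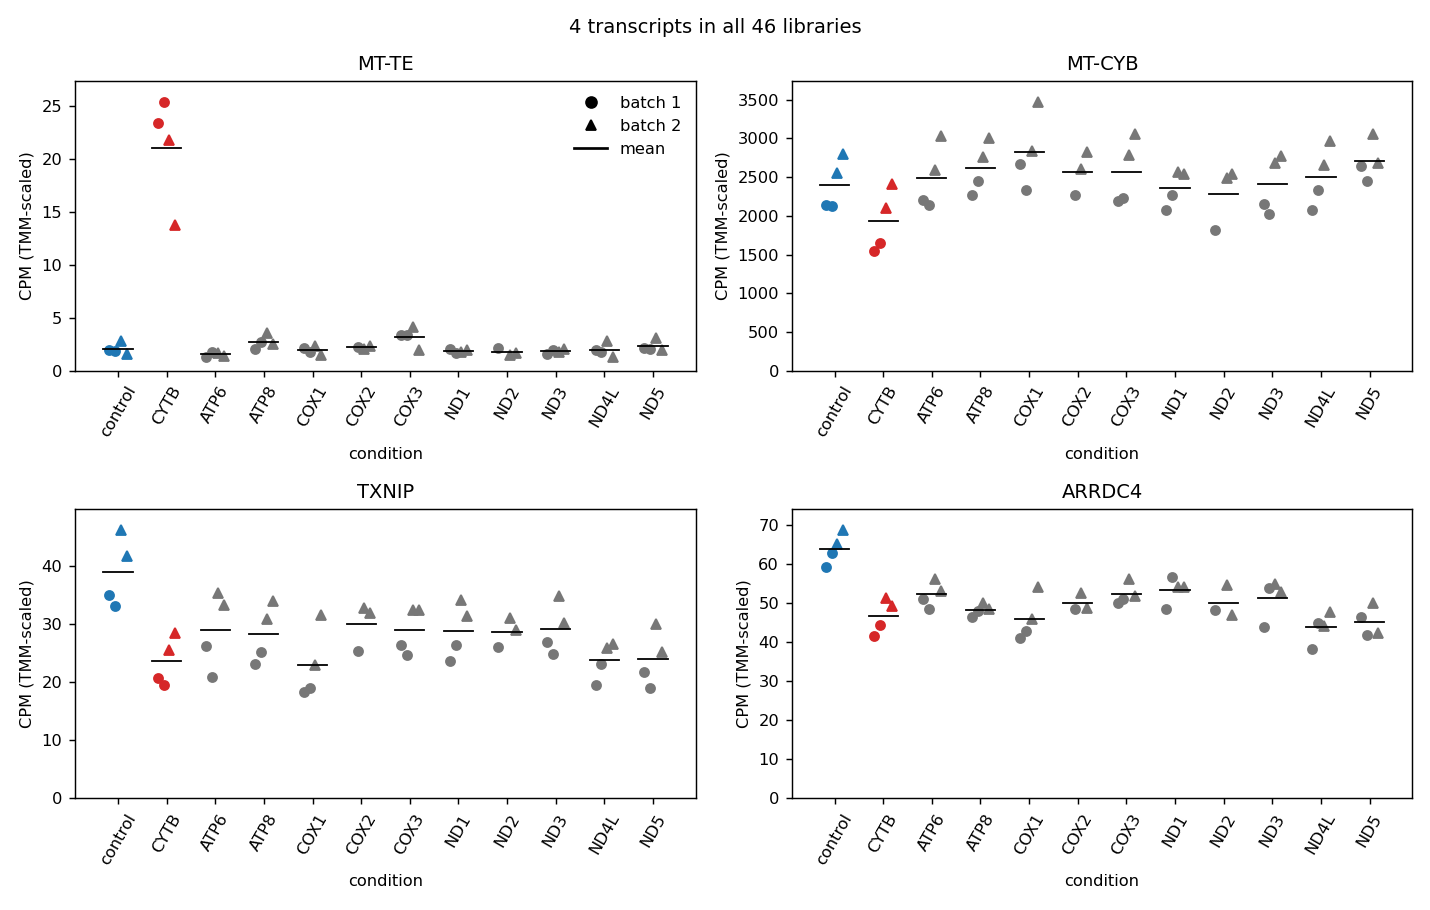
CPM (y axes) of MT-TE, MT-CYB, TXNIP and ARRDC4 in all 46 libraries by condition (x axes), with 1 point a library, its shape for the batch and a line at the mean of each condition. MT-TE is at 13.7 to 25.3 CPM in CYTB cells and at most 4.15 CPM elsewhere, MT-CYB is below the control within each batch, and TXNIP and ARRDC4 are lower than the control in CYTB cells and in other treatments.

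Other mtDNA genes differed less. Of the 13 mtDNA-encoded mRNAs, MT-CYB was the 1 called, and the other 12 had log2 fold changes between -0.24 and 0.26. For comparison, 0.548% of all 20272 genes tested were called, with 0.38% higher and 0.168% lower in CYTB cells. The lowest of the 12 was MT-ND2, which encodes a complex I subunit, at 2093, 2034, 2412 and 2567 CPM in control replicates 1 to 4. In CYTB replicates 1 to 4 it was at 1712, 1847, 2070 and 2071 CPM, so that each library lay below the control of its batch while the groups overlapped. Its log2 fold change of -0.24 (SE 0.0617) missed the threshold with the batch as a term (adjusted p = 0.0512) and passed it with the replicate number as a block (adjusted p = 0.0299). Against the mean of the other 10 treatments MT-ND2 was lower (log2 difference -0.40, SE 0.0476, adjusted p = 2.14e-07). That mean includes the ND2 treatment, in which MT-ND2 was at a log2 value of 1.02 against the control. Without the ND2 treatment, an alternative chosen after seeing the data, the difference was -0.31 (SE 0.0473, adjusted p = 0.000191). The remaining mean still holds the ND1 treatment, where MT-ND2 was at 2932, 3319, 3375 and 2807 CPM, and a mean without ND1 was not tested. Over the 10 treatments the log2 fold change of MT-ND2 against the control was -0.04 (ND4L) to 1.02 (ND2), with a median of 0.04.

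MT-ND6, the mRNA of the light-strand transcript, encodes a further complex I subunit. It was at 518 to 564 CPM in the control libraries and at 598 to 684 CPM in the CYTB libraries, without overlap, and was not called (0.20, SE 0.0702, adjusted p = 0.158). MT-CO1, the catalytic subunit of complex IV, had 12002 ± 619 CPM in the control and 13180 ± 1534 CPM in CYTB cells (n = 4; 0.13, adjusted p = 0.387). MT-CO1 was higher than the mean of the other 10 treatments (0.29, SE 0.049, adjusted p = 0.000639), but not without the COX1 treatment (0.16, SE 0.0499, adjusted p = 0.319), in which the log2 fold change of MT-CO1 against the control was -1.33. Reads of MT-ATP8 and MT-ATP6, and of MT-ND4L and MT-ND4, come from overlapping genes and cannot be fully separated.

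The 12S rRNA MT-RNR1 was at 652 CPM in the control and 658 CPM in CYTB cells (log2 fold change 0.01, adjusted p = 0.968). It was below the mean of the other 10 treatments by a log2 value of -0.23 (SE 0.0474, adjusted p = 0.014), where the treatments themselves ranged from -0.25 (ND2) to 0.75 (ATP8) against the control. Of 22 mitochondrial tRNA genes, 19 were tested and MT-TE was the 1 called. The lowest adjusted p among the other 18 was 0.193. The tRNA genes that flank the other end of MT-CYB were MT-TT, with 57 counts in the control and 77 in CYTB cells over 4 libraries each, and MT-TP on the minus strand, with 2368 and 2760 counts. Removing a trend of fold change on gene length turned the median log2 fold change of the mtDNA mRNAs from 0.06 to -0.01, that of the 2 rRNAs from 0.03 to -0.04 and that of the tRNAs from 0.08 to -0.12, so no direction was read from these medians.

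Across all 20272 genes tested, 111 were called (0.548%), of which 77 were higher and 34 lower. With the replicate number as a block in place of the batch, 219 were called (147 higher and 72 lower), and these included all 111. With library sizes from nuclear genes the split was 58 higher and 40 lower. Removing a length trend gave 72 and 47, and removing a GC trend gave 64 and 83. The median size of the log2 fold change was 0.31 among the 111, and 18 reached 0.5. All 4 CYTB libraries lay on the same side of the control of their batch in 111 of 111. Of these, 86 had no overlap between groups, which held for 5.11% of all genes tested. The 111 were called from the same libraries, so neither count is separate support for them. The number depended on single libraries: it was 10 without control replicate 4, 13 without CYTB replicate 1, 17 without control replicate 3 and 242 without control replicate 1. Of the 111, 9 were called whichever of the 8 libraries was left out: MT-TE, TXNIP, ARRDC4, SEMA6B, EML2, PROCR, SLC44A2, ZNF75A and MTCO1P12. A test of the difference of the CYTB effect between batches called no gene (0 of 20272 in the edgeR quasi-likelihood test, percent called 0, with 802 genes at an unadjusted p under 0.05), which does not show that the batches responded alike. Of 5 called genes with an absolute log2 fold change of at least 1, MT-TE was the 1 with more than 100 counts over the 8 libraries.

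**Figure D3:**
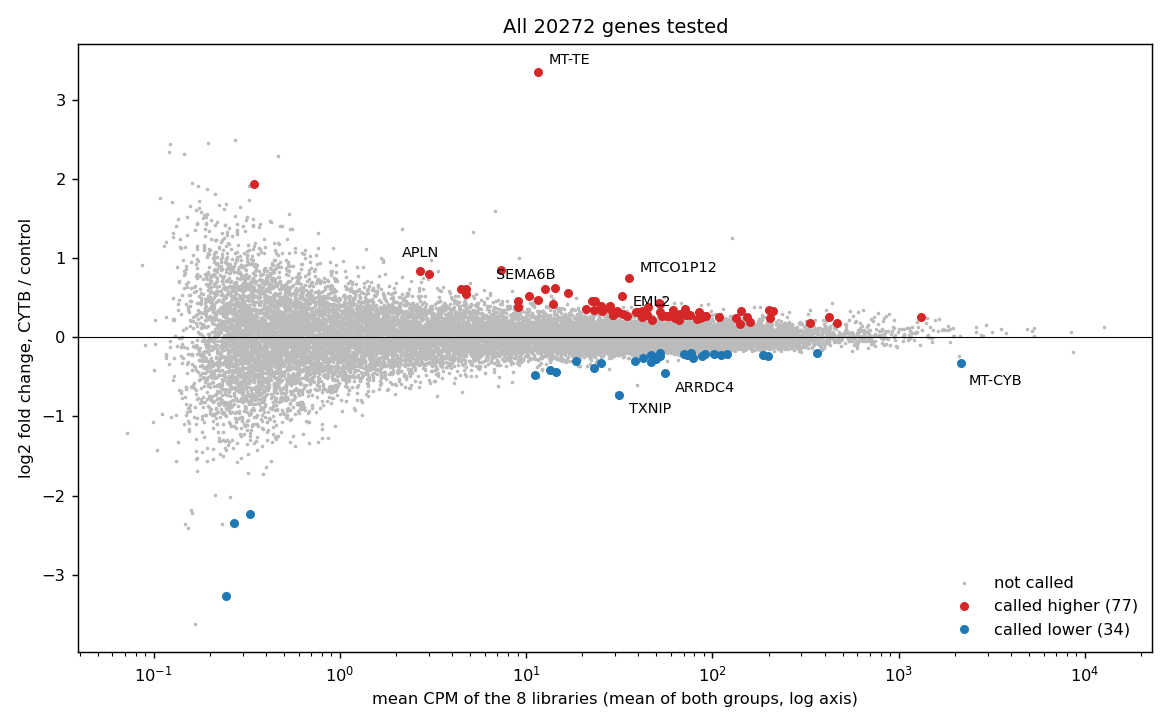
Log2 fold change of CYTB over control (y axis) against mean CPM of the 8 libraries (x axis, log scale) of the 20272 genes tested, with the 111 called genes coloured by direction. MT-TE, MT-CYB, TXNIP and other genes of the text are named, and most called genes lie within 0.5 of 0.

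The nuclear transcript that fell with the smallest adjusted p was TXNIP, which encodes an arrestin-domain protein that binds thioredoxin and restrains glucose uptake. TXNIP was at 35.1, 33.1, 46.2 and 41.9 CPM in control replicates 1 to 4 and at 20.7, 19.6, 25.5 and 28.6 CPM in CYTB replicates 1 to 4. All CYTB libraries lay below all control libraries, with 57.4% to 64.9% of the control level in the same batch. The mean fell from 39.1 ± 6.06 to 23.6 ± 4.19 CPM (n = 4; log2 fold change -0.73, SE 0.0783, adjusted p = 1.18e-08), with -0.76 in batch 1 and -0.70 in batch 2.

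ARRDC4, a related alpha-arrestin, also fell. It was at 59.2, 62.8, 65.0 and 68.7 CPM in the control libraries and at 41.6, 44.5, 51.2 and 49.2 CPM in the CYTB libraries, without overlap (-0.46, SE 0.0635, adjusted p = 1.32e-05). Both genes are known targets of MondoA, a transcription factor that senses glucose phosphates and binds with its partner MLX. In the list of 6 genes of this axis, 0 rose and 2 fell, against 0.168% of all genes that fell. The list median was -0.06 beside a median of -0.00039 over all genes. The 2 are TXNIP and ARRDC4 themselves, and the list was chosen with earlier results known, so the count is no further evidence. The other members did not pass the test: ARRDC3 had -0.06 (adjusted p = 0.841), MLX -0.06 (0.762), MLXIP, which encodes MondoA, -0.03 (0.84) and MLXIPL 0.09 (0.763). TXNIP and ARRDC4 were also lower in other treatments, which share the control libraries. TXNIP was called in 10 of 10 of them, at log2 fold changes of -0.78 (COX1) to -0.42 (ND3), and ARRDC4 in 7, at -0.55 (ND4L) to -0.26 (ND1). Compared with the mean of those treatments, CYTB cells had a log2 difference of -0.20 for TXNIP (SE 0.0601, adjusted p = 0.366) and -0.07 for ARRDC4 (adjusted p = 0.765), neither of which was called.

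The promoter windows of these genes are shown because both fell, and MondoA and MLX are known to bind carbohydrate response elements built from E-boxes. The sequences are from RefSeq (GRCh38.p14). Capitals mark CACGAG in TXNIP, from 88 and 77 bases before the start, and CACGTG in ARRDC4, from 210 bases before the start.
TXNIP (chr1:145996608-145996697, minus strand, 118 to 29 bases before the start): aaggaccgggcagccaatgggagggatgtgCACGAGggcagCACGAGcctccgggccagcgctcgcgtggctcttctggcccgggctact
ARRDC4 (chr15:97960463-97960552, plus strand, 240 to 151 bases before the start): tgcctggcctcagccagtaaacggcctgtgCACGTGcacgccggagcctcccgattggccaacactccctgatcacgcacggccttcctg
Of 35116 RefSeq promoter windows of 300 bases, searched on both strands, 7.26% held CACGTG and 6.78% held CACGAG. The former is the canonical E-box and its own reverse complement, and the latter was searched as the variant present in TXNIP. These shares count windows with any match. TXNIP had 2 windows in the set, and the window shown was chosen for its repeated CACGAG, so the repeat carries no weight. The matches describe the letters only, and binding was not measured.

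ZNF75A, a zinc finger gene, fell from 26.3 ± 1.73 to 20.1 ± 2.64 CPM (n = 4; -0.39, SE 0.0753, adjusted p = 0.00586) without overlap. HOXB4, a homeobox transcription factor, fell from 16.6 ± 1.13 to 12.2 ± 1.75 CPM (-0.44, SE 0.0871, adjusted p = 0.00738). BCL2L11 encodes the pro-apoptotic protein BIM, and was at 52.8, 52.1, 52.5 and 48.3 CPM in the control and at 44.0, 44.9, 41.0 and 36.4 CPM in CYTB libraries. Its groups did not overlap, and the log2 fold change was -0.31 (SE 0.0578, adjusted p = 0.00424). GORAB, a Golgi protein (-0.48, adjusted p = 0.0291), CREBRF, a regulator of CREB3 (-0.42, adjusted p = 0.0279), NPTX2, a neuronal pentraxin (-0.32, adjusted p = 0.0291), and PNRC1, a nuclear receptor coactivator (-0.30, adjusted p = 0.00869), fell as well. SCYL3 (-0.30, adjusted p = 0.034) and FAM13B (-0.28, adjusted p = 0.0289) completed the genes named by the rule for lower transcripts. In the other 10 treatments, against the same control libraries, the genes of this paragraph had log2 fold changes below 0 throughout. Values were -0.35 to -0.19 for ZNF75A, -0.36 to -0.15 for HOXB4, -0.22 to -0.06 for BCL2L11 and -0.30 to -0.13 for PNRC1. None of the genes was called against the mean of those treatments, with adjusted p from 0.268 (BCL2L11) to 0.709 (PNRC1).

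Among transcripts that rose, SEMA6B, a membrane semaphorin of axon guidance, varied little within groups. SEMA6B was at 13.5, 14.8, 12.8 and 13.4 CPM in the control libraries and at 20.4, 20.3, 19.5 and 19.96 CPM in the CYTB libraries. The mean rose from 13.6 ± 0.857 to 20.02 ± 0.403 CPM (n = 4; 0.56, SE 0.0906, adjusted p = 0.000486), and no library overlapped with the other group. In the other 10 treatments its log2 fold change against the same control libraries was 0.13 to 0.51, and it was called in 1 of them.

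EML2, a microtubule-associated protein, rose from 26.7, 25.2, 27.7 and 26.8 CPM to 33.2, 34.0, 39.7 and 47.5 CPM, without overlap (0.53, SE 0.0733, adjusted p = 1.32e-05). Its values in the other treatments were 0.18 to 0.44, of which 3 were called, and the log2 difference of CYTB from their mean was 0.24 (adjusted p = 0.0615). PROCR, the protein C receptor, rose from 21.9 ± 1.37 to 28.7 ± 1.64 CPM (0.39, SE 0.0717, adjusted p = 0.00294), and had 0.14 to 0.33 in the other treatments, of which 2 were called. SLC44A2, a choline transporter-like protein, rose from 63.4 ± 4.6 to 79.6 ± 13.8 CPM (0.31, SE 0.0545, adjusted p = 0.00135), with 0.18 in batch 1 and 0.45 in batch 2 and overlapping groups. Its values in the other treatments were 0.12 to 0.32, of which 2 were called.

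The protein-coding genes with the largest fold changes among those that rose included APLN and MFSD14A, both below 6 CPM. APLN, the peptide ligand apelin, rose from 1.92 ± 0.199 to 3.45 ± 0.688 CPM (0.83, SE 0.194, adjusted p = 0.0289), and was called in 3 of the 8 fits without 1 library. MFSD14A, a membrane transporter family member, rose from 2.20 ± 0.18 to 3.79 ± 0.999 CPM (0.80, SE 0.18, adjusted p = 0.0248) and was called in 5 of 8. PGGHG, a glycosidase that acts on collagen sugars (0.62, adjusted p = 0.0273), PDZD7, a scaffold of sensory hair bundles (0.61, adjusted p = 0.0283), ARHGDIG, an inhibitor of small GTPases (0.52, adjusted p = 0.0346), and LHPP, a phosphatase (0.47, adjusted p = 0.03), also rose. Further genes were TNNT1, a troponin subunit (0.46, adjusted p = 0.0196), OGDHL, a relative of the oxoglutarate dehydrogenase of the TCA cycle (0.45, adjusted p = 0.0371), ANXA1, an annexin (0.44, adjusted p = 0.0407), and HOMER3, a scaffold protein (0.42, adjusted p = 0.0273). The other 10 treatments had -0.02 (ND3) to 0.62 (ND2) for APLN and 0.01 (ND2) to 0.58 (ND4L) for MFSD14A. No gene of this paragraph was called against the mean of those treatments, with adjusted p from 0.179 (PGGHG) to 0.885 (ANXA1).

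MTCO1P12, a nuclear copy of the MT-CO1 sequence on chromosome 1, was at 24.5 to 28.3 CPM in the control and at 40.8 to 49.5 CPM in CYTB cells (0.75, SE 0.124, adjusted p = 0.000514). Its near-identity with MT-CO1 makes the assignment of reads uncertain. In the other treatments its log2 fold change ranged from -0.85 (COX1) to 0.80 (ND5).

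**Figure D4:**
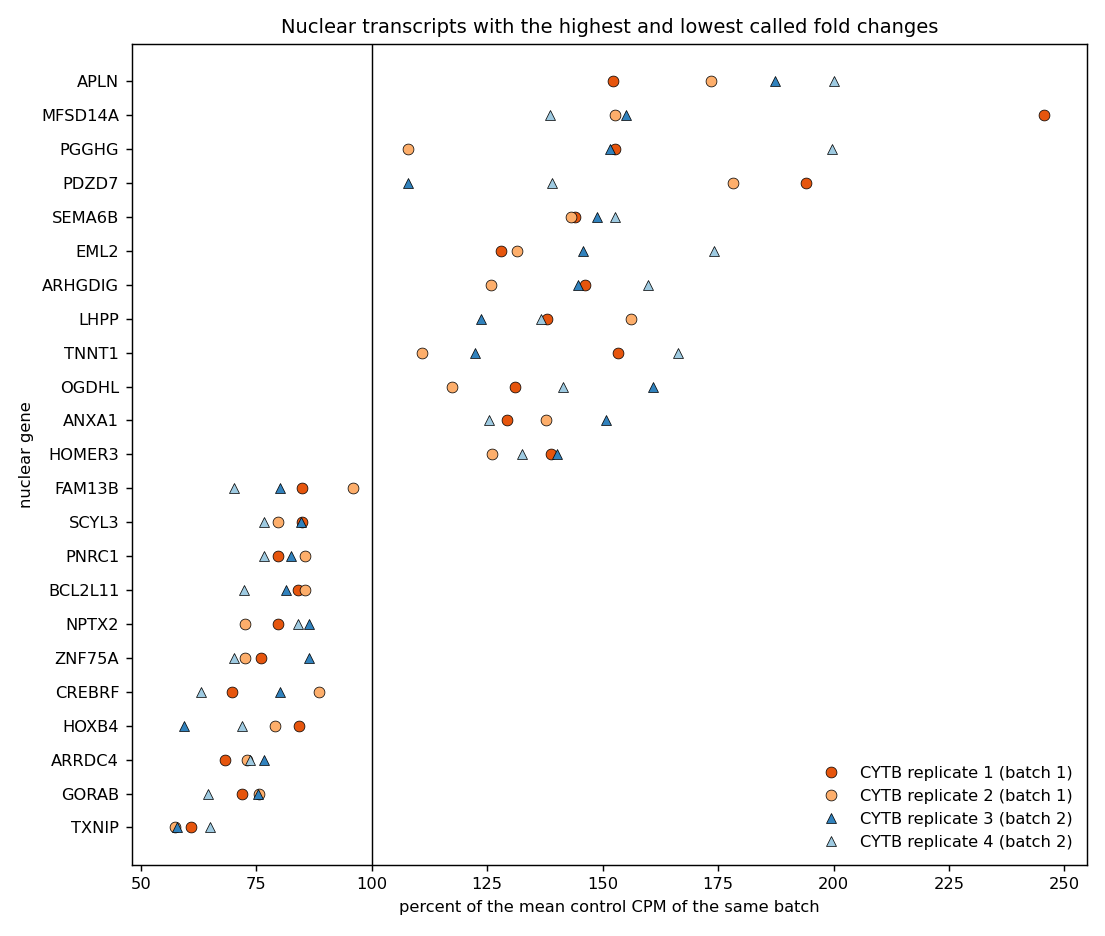
CPM of each CYTB library as percent of the mean control CPM of its batch (x axis) for the nuclear genes with the highest and lowest called fold changes (y axis), with 1 point a library and its shape for the batch. TXNIP lies at 57.4% to 64.9% in the 4 libraries, and all 4 points of each gene lie on one side of 100%.

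The nuclear subunits of complex III, the partners of cytochrome b, were examined next. Of 9 tested, 0 rose and 0 fell, with 8 positive and 1 negative values and a median log2 fold change of 0.11. CYC1, which encodes cytochrome c1, was at 111 to 120 CPM in the control and at 129 to 147 CPM in CYTB libraries without overlap, and missed the threshold (0.21, SE 0.0609, adjusted p = 0.0807). UQCRFS1, the Rieske iron-sulphur protein, had 299 CPM in the control and 281 CPM in CYTB cells (-0.09, SE 0.0502, adjusted p = 0.432). The core subunits UQCRC1 (0.11, adjusted p = 0.263) and UQCRC2 (0.06) and the small subunits UQCRB (0.22, adjusted p = 0.26), UQCRQ (0.23, adjusted p = 0.258) and UQCRH (0.21, adjusted p = 0.201) were not called, nor was UQCR10 (0.04, adjusted p = 0.908). CYTB replicate 1 stood above the other CYTB libraries for this list, with library medians of 0.21, 0.02, 0.10 and 0.10 in replicates 1 to 4, and without it the list median was 0.08. Of 9 complex III assembly factors, which include the cytochrome b translation factors UQCC1 (0.02) and UQCC2 (0.14), 0 were called, with a median of 0.09. The highest values were those of SMIM4 (0.25, adjusted p = 0.305) and C16orf91 (0.15), and the lowest beside UQCC1 that of LYRM7 (0.01), the chaperone of the Rieske protein.

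The other respiratory complexes gave similar values. Of 37 nuclear complex I subunits, 33 were positive with a median of 0.10 and 0 called. NDUFS6 (0.41, adjusted p = 0.0561) and NDUFV1 (0.20, adjusted p = 0.0593) missed the threshold with the batch term. Both passed it with the replicate block (adjusted p = 0.0303 and 0.045), and in 2 and 3 of the 8 fits without 1 library. All 12 complex IV subunits tested and 17 of 18 complex V subunits were positive, with medians of 0.10 and 0.09 and 0 called. The members of lowest p were COX4I1 (0.15, adjusted p = 0.188) and COX7C (0.32, adjusted p = 0.194) of complex IV and ATP5ME (0.55, adjusted p = 0.0655) and ATP5IF1, the ATPase inhibitor (0.24, adjusted p = 0.149), of complex V. Library medians of the CYTB replicates were 0.21, 0.04, 0.09 and 0.10 for complex I and 0.25, 0.02, 0.02 and 0.12 for complex IV. For complex V they were 0.18, 0.02, 0.09 and 0.08. Replicate 1 was highest in each, and without it the medians of complexes I, IV and V were 0.06, 0.05 and 0.04. Among all genes 10115 were positive and 10157 negative. Of 14 dehydrogenases and other partners that feed ubiquinone or cytochrome c and of 14 genes of ubiquinone synthesis, 0 were called, with medians of 0.07 and 0.0021. The lowest adjusted p was 0.244 in the former, for ETFA (0.11), an electron transfer flavoprotein subunit, and 0.281 in the latter, for COQ5 (0.16), a ubiquinone methyltransferase.

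Factors of mtDNA expression did not move together: 16 of 35 were positive, 0 were called and the median was -0.005. The members of lowest p were HSD17B10, a subunit of mitochondrial RNase P that cuts tRNAs from the precursors (0.18, adjusted p = 0.113), and TFB1M, an rRNA methyltransferase (0.23, adjusted p = 0.24). Of 82 mitochondrial ribosomal protein genes, 62 were positive and 2 rose (median 0.07), against 0.38% of all genes tested. The 2 were MRPL24, from 64.8 to 79.0 CPM (0.28, SE 0.0629, adjusted p = 0.0217), and MRPS16, from 133 to 149 CPM (0.17, SE 0.0417, adjusted p = 0.0418). With the replicate block 3 rose. Of 79 cytosolic ribosomal protein genes, 75 were positive with a median of 0.13, and RPS3 rose from 1199 ± 77.2 to 1430 ± 125 CPM (0.25, SE 0.0618, adjusted p = 0.0375) as the 1 called. RPS9 was not called with the batch term and was called with the block (0.31, adjusted p = 0.0583 and 0.0387), with which 4 of the list rose. CYTB library medians of this list were 0.24, 0.04, 0.08 and 0.21, and without replicate 1 the list median was 0.09.

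In the integrated stress response, ATF4 raises genes of amino acid supply and tRNA charging when mitochondria or the endoplasmic reticulum are impaired. Of 45 genes tested, 4 rose and 0 fell, against 0.38% and 0.168% of all genes tested, with 35 positive and a median of 0.09. AARS and SARS, the cytosolic tRNA synthetases for alanine and serine, rose from 123 ± 5.97 to 145 ± 4.23 CPM (0.24, SE 0.0501, adjusted p = 0.00869) and from 148 to 169 CPM (0.19, SE 0.0442, adjusted p = 0.0309). STC2, a secreted stanniocalcin, rose from 48.5 to 58.6 CPM (0.27, SE 0.0589, adjusted p = 0.017), and PCK2, the mitochondrial phosphoenolpyruvate carboxykinase, from 22.5 to 28.4 CPM (0.34, SE 0.0819, adjusted p = 0.0369). Groups did not overlap for AARS, SARS, STC2 or PCK2, which held for 5.11% of all genes tested. The 4 were called from the same libraries, so this is no separate support. Of the 8 fits without 1 library, 5 called AARS, 6 STC2, 3 SARS and 3 PCK2. In the other treatments, against the same control libraries, log2 fold changes were 0.09 to 0.22 for AARS, 0.06 to 0.18 for SARS, 0.02 to 0.25 for STC2 and 0.0019 to 0.25 for PCK2. STC2 was called in 1 of the 10 treatments and AARS, SARS and PCK2 in 0. None of the 4 genes was called against the mean of those treatments, with adjusted p from 0.432 (PCK2) to 0.736 (SARS).

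Glycolysis and pyruvate entry were measured by lists of 23 and 31 genes. Of the glycolysis genes 20 were positive (median 0.10) and 2 rose, against 0.38% of all genes tested. HK2, a hexokinase, rose from 61.2 to 71.0 CPM (0.21, SE 0.0534, adjusted p = 0.0423), and PFKP, the platelet phosphofructokinase, from 312 to 353 CPM (0.18, SE 0.0445, adjusted p = 0.0442). With the replicate block 3 rose, and with library sizes from nuclear genes neither HK2 nor PFKP was called. Of the 8 fits without 1 library, 2 called HK2 and 3 PFKP. In the other 10 treatments, against the same control libraries, HK2 had 0.04 (ND5) to 0.26 (COX3). PFKP had 0.09 (ND3) to 0.27 (COX2), and each gene was called in 1 of those treatments. Against their mean neither was called (HK2 0.06, adjusted p = 0.738, and PFKP 0.02, adjusted p = 0.946). APLN was the 1 called of 20 hypoxia genes (median 0.04), and NDRG1 had 0.15 (adjusted p = 0.119). Of the 31 genes of the TCA cycle and pyruvate entry 0 were called (median 0.04), with PDHA1, a pyruvate dehydrogenase subunit, at 0.14 (adjusted p = 0.095) and ME2, a malic enzyme, at 0.12 (adjusted p = 0.175).

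Complex III is a source of superoxide, and its substrate ubiquinone also serves pyrimidine synthesis. Of 13 superoxide and peroxide enzymes, PRDX5, a mitochondrial peroxiredoxin, rose from 62.2 to 79.9 CPM (0.36, SE 0.09, adjusted p = 0.0424). It was the 1 called, against 0.38% of all genes tested that rose, and the list median was 0.05. PRDX5 was called in 3 of the 8 fits without 1 library. In the other 10 treatments, against the same control libraries, it had 0.05 (ND3) to 0.37 (ND4L). Against the mean of those treatments PRDX5 was not called (0.17, adjusted p = 0.54). Of 22 NRF2 targets 0 were called (median 0.06), and SRXN1, a sulfiredoxin, had 0.45 (adjusted p = 0.0876). HMOX1, haem oxygenase 1, missed the threshold with the batch term and passed it with the replicate block (0.41, adjusted p = 0.169 and 0.029). Of 15 pyrimidine synthesis genes 0 were called, with 12 negative and a median of -0.02. TYMS missed the threshold with the batch term and passed it with the block (-0.19, adjusted p = 0.0828 and 0.0448). Of 12 genes of serine and one-carbon metabolism 0 were called (median -0.0016).

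The lists of cell cycle genes, p53 targets and immediate early genes leaned to lower values, as did pyrimidine synthesis and the MondoA axis. Of 25 cell cycle genes 22 were negative with a median of -0.07. PCNA, the sliding clamp of DNA replication, fell from 387 ± 9.52 to 339 ± 10.6 CPM (n = 4, -0.19, SE 0.0469, adjusted p = 0.0367). It was the 1 called, against 0.168% of all genes tested that fell, and was called in 2 of the 8 fits without 1 library. In the other 10 treatments PCNA had -0.21 (ND5) to 0.003 (ND1) against the same control libraries, and was called in 1. Against their mean it was not called (-0.08, adjusted p = 0.611). CCNE2 missed the threshold with the batch term and passed it with the block (-0.31, adjusted p = 0.0768 and 0.0458). Of 23 p53 targets 19 were negative (median -0.09), and of 21 immediate early and ERK feedback genes 15 were negative (median -0.09), with 0 called in either. Library medians of CYTB replicates 1 to 4 were -0.05, -0.05, -0.08 and -0.11 for the p53 targets and -0.03, -0.01, -0.08 and -0.26 for the immediate early genes, whose median was -0.05 without replicate 4. SESN1 (-0.21, adjusted p = 0.0513 and 0.0396 with the block) and FOS (-0.62, adjusted p = 0.0655 and 0.0431 with the block) were the members that passed with the replicate block, and FOS had -0.36 in batch 1 and -1.02 in batch 2. Of 21 mitochondrial chaperones and proteases 0 were called (median 0.06). LONP1 missed the threshold with the batch term and passed it with the block (0.21, adjusted p = 0.0655 and 0.044). Of 23 cholesterol synthesis genes 0 were called (median -0.02), with PMVK, phosphomevalonate kinase, at 0.31 (adjusted p = 0.111).

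**Figure D5:**
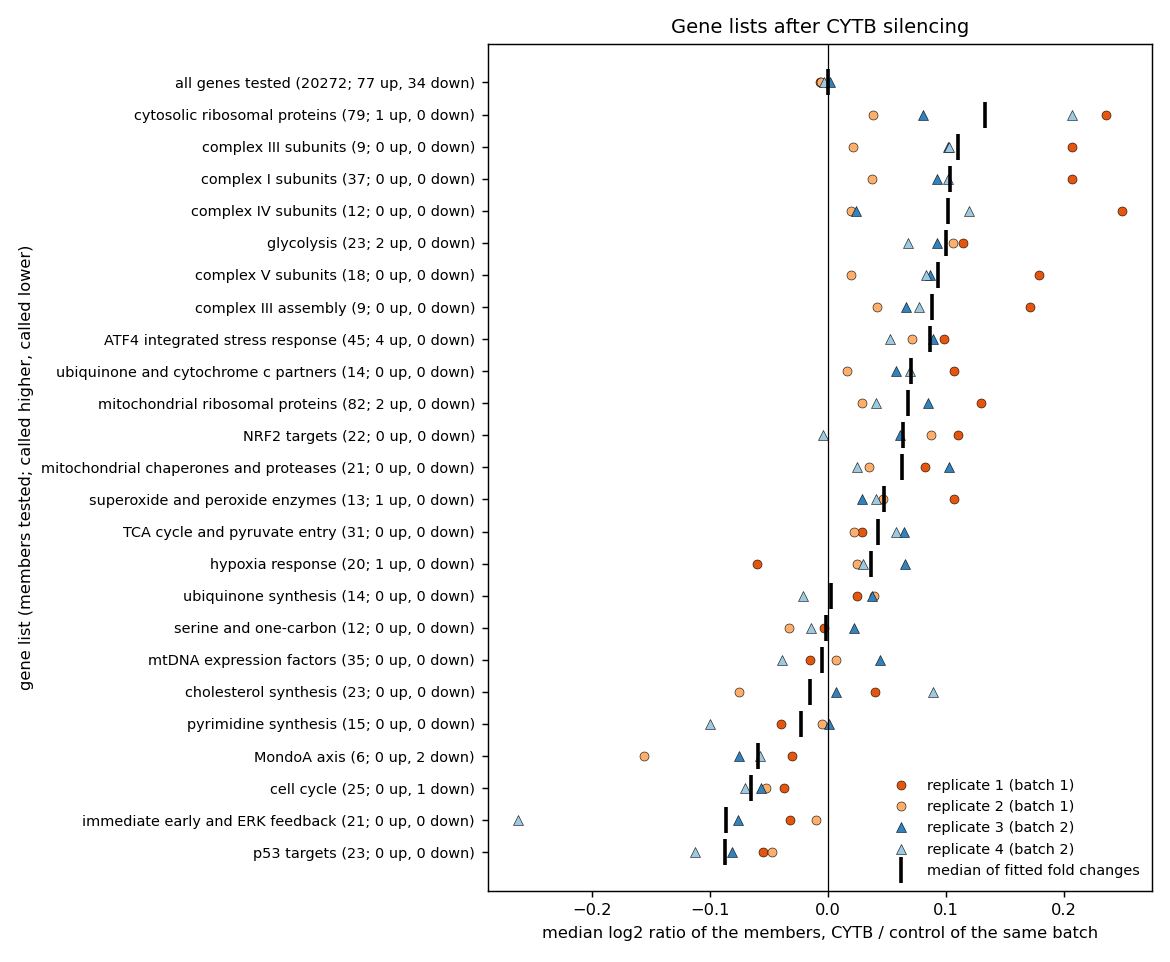
Median log2 fold change of CYTB over control (x axis) of each gene list (y axis), as black marks, with points for the medians of the 4 CYTB libraries relative to the same batch's control. The respiratory complexes and cytosolic ribosomal proteins lie right of 0 with replicate 1 farthest out for complexes I, III, IV and V and the cytosolic ribosomal proteins, and the p53, cell cycle and immediate early lists lie left of 0.

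Genes that set CYTB silencing apart from the other chimeras were sought against the mean of the other 10 treatments. In this contrast 12 genes were called (0.0592%), 7 higher (0.0345%) and 5 lower (0.0247%), and 20 with the replicate block (13 higher and 7 lower). Of the 12, 4 were also called against the control: MT-TE, MT-CYB, MTCO1P12 and the lincRNA AP003392.5, which had 39 counts in the control and 4 in CYTB libraries. MTCO1P12 was not called without the COX1 treatment in the mean (0.50, adjusted p = 0.00137, against 0.38, adjusted p = 0.101). Besides MT-ND2, MT-CO1 and MT-RNR1, the list held MTND2P28, a nuclear copy of MT-ND2 sequence (-0.37, SE 0.0558, adjusted p = 0.000101), whose reads may be shared with MT-ND2. Without the ND2 treatment, where MTND2P28 was at 1.15 against the control, the difference was -0.28 (SE 0.0556, adjusted p = 0.0158). Against the control its log2 fold change in CYTB cells was -0.06 (adjusted p = 0.755).

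The nuclear protein-coding genes of this contrast were 4, and all were higher in CYTB cells. CEP152, a scaffold of centriole duplication, had 33.8 CPM in CYTB cells and 29.05 CPM in the control, and differed from the other treatments by 0.31 (SE 0.0489, adjusted p = 0.000273). Its log2 fold change against the control was 0.22 (adjusted p = 0.103), beside values of -0.15 to -0.03 in the other treatments. ZNF467, a zinc finger gene (0.47, SE 0.0893, adjusted p = 0.00803), MYLK2, a muscle myosin light chain kinase (0.94, SE 0.185, adjusted p = 0.0113), and ADRA2C, an adrenergic receptor (0.42, SE 0.0836, adjusted p = 0.0129), were also higher than in the other treatments. None of the 4 was called against the control.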

How the data were processed

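HEK293T cells were sequenced as poly(A)-selected RNA. The authors deposited raw counts of reads per gene (58735 genes, GENCODE 29, GRCh38), without normalization, before the batch correction they describe. The deposited table also holds a gene length in bases, counted as another measure and used in 1 alternative. The submitters' processing notes name R 4.3.0, DESeq2 1.40.2 and limma 3.56.2; the aligner, the counter and its strand setting are not given in the sources used here. The paper gives paired-end and the labels single-end reads.

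Here 1 model of the 46 libraries was fitted in R 4.3.3 with the edgeR 4.0.16 quasi-likelihood F test, with TMM scaling, terms for the 12 conditions and the 2 batches, and filterByExpr at a minimum count of 10, which kept 20272 genes. The SE was computed as the absolute log2 fold change over the square root of F. CPM values are scaled by the TMM library sizes, and log2 CPM carries a prior count of 2. Alternatives were no batch term, the replicate number as block, RLE factors, library sizes from nuclear genes, other count filters, the 8 libraries or 1 batch alone, removal of length and GC trends, DESeq2 1.42.0 and limma 3.58.1 batch correction, a fold minimum and leaving out each library. Groups, batches and pairs came from the labels and the methods. Deviations of same-numbered CYTB and control libraries from their group means correlated at 0.565, 0.691, 0.497 and 0.599 (10430 genes). These deviations include the batch difference, so they cannot show a pairing by replicate number. Within batches 1 and 2 the correlations were 0.233 and 0.0217, and CYTB replicate 3 correlated best with control replicate 4. The replicate block therefore served as an alternative only. Replicate pairs differed by more than sampling noise (chi-square per degree of freedom 3.47 to 22.5).

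Named genes were all mtDNA mRNAs; the 2 highest and 2 lowest of the complex III lists; the 12 highest and 12 lowest called protein-coding genes with a mean of at least 1 CPM and all CYTB libraries on one side of their batch control; the 10 called genes with the lowest p; up to 6 called genes a list, or where fewer than 2 were called its members of lowest p up to 2; and genes called whichever library was left out. Other genes (CYC1, BCS1L, UQCRC1, UQCRC2, UQCRH, UQCC2, MT-TT, MT-TP, the genes called against the other treatments and those under other observations) were named after their values were seen. Scripts were tested on simulated data. Members, gene lists and tests were chosen with earlier results of these data known. Set tests were not used. The morpholino sequence and some genes are not reported here. Columns of counts without a sample numbered 0.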

Additional observations from a re-analysis of the deposited data

Results flagged for a closer look

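In 6 of 188 groups of 4 libraries (94 genes in CYTB and control cells), 1 library stood apart from the other 3 by more than Dixon's 95% critical value, as the gap to its neighbour over the range of the group; chance gives this in about 1 group of 20. In CYTB replicate 1 it was high for 3 genes of the respiratory chain. UQCRQ was at 189 CPM there and at 130.4 to 138 CPM in the other 3 CYTB libraries (ratio 0.874), UQCRB at 121 against 85.1 to 90.8 CPM (0.845), and COX7C at 382 against 248 to 255 CPM (0.947). In control replicate 4 it was low for BCL2L11, at 48.3 against 52.1 to 52.8 CPM (0.847), COQ2, at 20.03 against 22.1 to 22.4 CPM (0.865), and HK2, at 54.6 against 62.5 to 64.0 CPM (0.834). The medians of 27 gene lists over the CYTB libraries gave 0 such cases. The part of these libraries in the results was not tested beyond leaving each out.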

How the results depend on the processing

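The count of 111 genes called against the control became 4 without a batch term, 219 with the replicate block, 406 without a count filter, 468 with the 8 libraries alone, 6 in batch 1 alone, 9 in batch 2 alone, 340 with DESeq2 (230 higher and 110 lower), 376 with DESeq2 on batch-corrected counts and 18 at an absolute log2 fold change of at least 0.5. Leaving out 1 library gave 10 to 242. RLE factors gave 127, a minimum count of 50 gave 151, library sizes from nuclear genes 98, removal of the length trend 119 and of the GC trend 147. MT-CYB was lower in all settings, and lost its call without a batch term (-0.32, adjusted p = 0.573) and in batch 2 alone (-0.25, adjusted p = 0.374); without 1 library it was between -0.39 and -0.28. The 12 genes called against the other treatments became 5 without a batch term, 20 with the block, 92 without a filter and 7 to 13 without 1 library (7 without CYTB replicate 4). The batch difference gave 0 called genes, and 17 without a filter. Of 38 other named called genes, 38 were called with DESeq2 and the block, 34 with nuclear library sizes, 32 with the GC trend removed, 35 with the length trend removed and 3 without a batch term. The causes were not tested. Among the genes named by rule and given here, the replicate block changed no other call.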

Other observations

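Beyond the genes named by rule, several called genes share a known place or family; they were chosen after their values were seen and carry no test as groups. Among them, C19orf70 (44.5 ± 3.09 to 59.5 ± 12 CPM, log2 fold change 0.42, adjusted p = 0.0191) and CHCHD6 (18.5 to 23.6 CPM, 0.35, adjusted p = 0.0289), both subunits of the MICOS complex of cristae junctions, rose. PCCB, a propionyl-CoA carboxylase subunit, rose from 57.5 to 67.8 CPM (0.24, adjusted p = 0.00869), SFXN3, a sideroflexin, from 52.7 to 63.5 CPM (0.27, adjusted p = 0.00869), and ALDH1B1, a mitochondrial aldehyde dehydrogenase, from 78.5 to 92.9 CPM (0.24, adjusted p = 0.022). GALK1, galactokinase (0.34, adjusted p = 0.027), and GSS, glutathione synthetase (0.27, adjusted p = 0.00782), rose as well. No gene of this paragraph was called against the mean of the other treatments, with adjusted p from 0.366 (GALK1) to 0.692 (CHCHD6). Of the 8 fits without 1 library, between 3 (CHCHD6) and 6 (SFXN3 and GSS) called each gene.

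Besides HOXB4, the homeobox genes HOXB9 (78.9 ± 2.54 to 67.2 ± 3.19 CPM, log2 fold change -0.23, adjusted p = 0.0377), HOXA9 (82.0 ± 0.291 to 71.1 ± 2.75 CPM, -0.20, adjusted p = 0.0418) and MSX2 (53.1 to 44.3 CPM, -0.27, adjusted p = 0.0396) fell, while HOXA10 had -0.08 (adjusted p = 0.552). DTL, which marks proteins for destruction on loaded PCNA, fell from 119 to 103 CPM (-0.22, adjusted p = 0.00794). TICRR, a factor of replication origin firing, fell from 129 to 111 CPM (-0.21, adjusted p = 0.0418), and RB1, the retinoblastoma protein, from 85.1 to 71.2 CPM (-0.26, adjusted p = 0.0289). None of the genes that fell was called against the mean of the other treatments, with adjusted p from 0.479 (DTL) to 0.813 (HOXB9). HOXB4 apart, between 1 (HOXA9) and 5 (DTL) of the 8 fits without 1 library called each of them.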
